A study of Homo sapiens with 6 samples.

Results

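The genes described here are 10 of the 26255 genes listed in each sample: the metallothioneins MT2A, MT1E, MT1F, MT1G and MT1X, the transcription factor MTF1, and the zinc transporters SLC30A1, SLC30A4, SLC39A1 and SLC39A6. They were chosen by gene symbol as members of the system that buffers and moves zinc, with earlier results of these data known. RNA was sequenced from 22RV1, a human castration-resistant prostate cancer cell line grown in medium with serum. One group of 3 samples received the vehicle DMSO and the other group of 3 samples received 10 nM bruceantin (BCT, a plant-derived quassinoid), both for 24 h. The comparison asks which transcripts differ after BCT, at 1 dose and 1 time in 1 cell line. The labels do not say whether the 3 samples of a group came from separate cultures, so p-values here measure only the spread between these samples.

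Metallothioneins are small, cysteine-rich proteins that bind zinc, copper and cadmium. MTF1 is the zinc-sensing factor that switches on metallothionein genes and SLC30A1 through metal response elements, short promoter motifs, when free zinc in the cell rises. Transporters of the SLC30 family (ZnT) move zinc out of the cytosol, across the plasma membrane or into vesicles, and those of the SLC39 family (ZIP) move zinc into it. Normal prostate epithelium is known for its high zinc content, which is commonly lost in prostate cancer.

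The core of the metal response element was searched in RefSeq promoter windows running from 250 bases before to 50 bases after each gene start, as the letters TGCACNC and TGCGCNC on both strands. Windows were matched exactly to GRCh37 for 7 of the 10 genes, and the table used held none for MT1E, MT1F and MT1G. The MT2A window held 8 matches, the MT1X window 4 and the SLC30A1 window 2. Among all 35116 promoter windows, 29.6% held at least 1 match, 8.6% at least 2 and 0.601% at least 4. SLC30A4 and SLC39A6 held 1 match each, the pair of SLC39A1 windows held 0 and 1, and MTF1 held 0. Of these matches, 3 of the 8 of MT2A, 3 of the 4 of MT1X and both of SLC30A1 are shown, those nearest the gene start on its upstream side and, for SLC30A1, the one past it, with the matched letters in capitals on the strand of the gene, and a match on the opposite strand is printed as its reverse complement, which ends in TGCA. The position is that of the first capital letter from the gene start, with GRCh37 coordinates.
MT2A at -88, chr16:56642399-56642423: gcgcggggcGTGTGCAggcagcgcc
MT2A at -54, chr16:56642433-56642457: cggggctttTGCACTCgtcccggct
MT2A at -8, chr16:56642479-56642503: ttgccgcgcTGCACTCcaccacgcc
MT1X at -122, chr16:56716251-56716275: acgggttgcTGCACCCggcccagga
MT1X at -78, chr16:56716295-56716319: agcaggggcGGGTGCAaggacgagg
MT1X at -53, chr16:56716320-56716344: cggggcctcTGCGCCCggccctctt
SLC30A1 at -49, chr1:211752537-211752561: gggggttccGAGTGCAaagcaaagt
SLC30A1 at 25, chr1:211752464-211752488: gaccgggccGAGTGCAgctgccgtg
A match describes the letters in the window and was not tested for binding.

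The authors deposited FPKM values, in which the fragments of a transcript are scaled by its length and by the size of the library, which allows levels to be set side by side between genes. The values were used as deposited, and the number of reads behind a gene is unknown. They summed to between 1169650 and 1572320 in a DMSO sample and between 757534 and 799838 in a BCT sample, and 1 small RNA gene, MIR6087, held 43.5% to 55.3% of the sum with DMSO and 31.7% to 32.5% with BCT. A scaling to equal sums therefore moves the other genes up with BCT, and over all tested genes it shifted the median difference by 0.76 on the log2 scale, from -0.038 to 0.72. Of the cell type markers, the 7 luminal epithelial genes were all at a mean of at least 1 FPKM, and their sum was 964 to 974 with DMSO and 1942 to 2101 with BCT. The sum of 5 fibroblast markers was 1.67 to 1.75 with DMSO and 5.23 to 6.57 with BCT, nearly all of it COL1A1, and that of 3 leukocyte markers was 2.08 to 3.16 and 4.99 to 8.27, nearly all of it CD68. The leukocyte marker CD3E was at 0 in all DMSO samples. The part of these markers in the results was not tested, and in bulk RNA fewer cells of a type cannot be told apart from less RNA per cell.

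Most of the chosen genes were higher in BCT-treated cells, while most of the other tested SLC30 and SLC39 genes, given below, were not. All 5 metallothioneins rose, by 1.23 to 3.43 on the log2 scale, and so did MTF1 and the zinc exporter SLC30A1, while the zinc importer SLC39A6 fell by 1.27. Differences are those of log2(FPKM + 0.1), tested with limma over the 12729 genes whose mean reached 1 FPKM. A gene was called if its log2 fold change exceeded 0.85 in either direction with a Benjamini-Hochberg FDR below 0.05. Of the 9 chosen genes that were tested, 7 were called higher and 1 lower. Among all genes tested 13.9% were called higher, 17.8% lower and 31.6% in either direction. As the genes were chosen with earlier results of these data known, their counts are not a test against these shares. SLC39A1 was tested and not called, and SLC30A4 had a mean under 1 FPKM and was not tested. In each of the 9 tested genes the ranges of the groups were apart, 7 with BCT above DMSO and 2 below. The same was so for 85.3% of all genes tested, 41% above and 44.3% below. The median log2 fold change was 1.23 over the 9 genes and -0.038 over all genes tested. None of the 9 passed the filter through its BCT samples alone, as the lowest DMSO mean was 3.64 FPKM, that of MTF1.

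**Figure D1:**
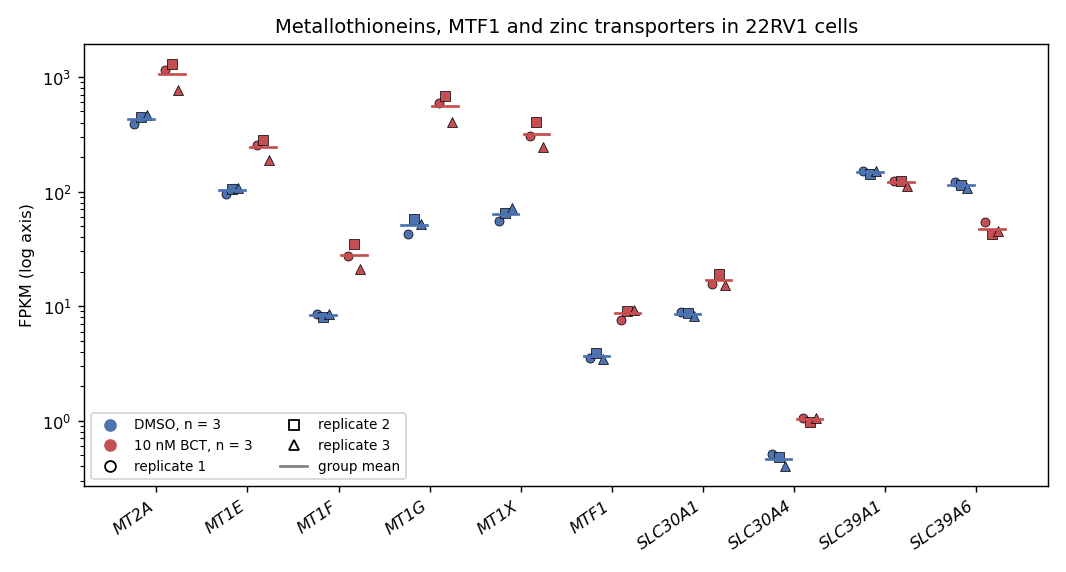
FPKM of each of the 10 genes in the 6 samples on a log axis, with DMSO and BCT samples as points and the group means as lines. The 5 metallothioneins, MTF1, SLC30A1 and SLC30A4 sit higher with BCT in all samples, and SLC39A1 and SLC39A6 sit lower.

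The metallothionein members lie together on chromosome 16, in a cluster of 15 listed metallothionein genes that spans 119 kb. MT2A (chromosome 16, 56642478 to 56643409, plus strand, hg19, 3 exons) is the most abundant of them. Its level was 393, 447 and 461 FPKM in the DMSO samples and 1147, 1296 and 770.4 FPKM in the BCT samples. All BCT samples were above all DMSO samples, with BCT replicate 3 well below the others. The DMSO mean of 434 ± 36.4 FPKM and the BCT mean of 1071 ± 271 FPKM (SD over 3 samples) gave a log2 fold change of 1.27 (SE 0.17, 95% confidence interval 0.88 to 1.67, limma adjusted p = 0.00015).

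MT1E (56659585 to 56661024, plus strand, 2 exons in the GENCODE transcript used), the next member along the chromosome, had the second highest DMSO level of the metallothioneins. Its values were 94.99, 105 and 107 FPKM with DMSO and 256.2, 283 and 190.3 FPKM with BCT, so that the groups were well apart. The log2 fold change of 1.23 (SE 0.13, limma adjusted p = 3.9e-05) was close to that of MT2A. MT1F (56691855 to 56693215, plus strand, 3 exons) was the least abundant of the 5. Its DMSO values were 8.50, 8.07 and 8.51 FPKM, its BCT values 27.2, 35.1 and 21.1 FPKM, and again no samples overlapped. The rise was 1.69 on the log2 scale (SE 0.16, limma adjusted p = 1.6e-05).

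MT1G changed most of the 10 genes. It is the only one of the 5 metallothionein members on the minus strand (56700647 to 56701977, 3 exons). MT1G measured 43.0, 57.7 and 52.4 FPKM in the DMSO samples, and BCT samples reached 588, 689 and 401 FPKM. Even the lowest BCT sample was several times above the highest DMSO sample. The group means were 51.0 ± 7.44 and 559 ± 146 FPKM, with a log2 fold change of 3.43 (SE 0.19, 95% confidence interval 2.99 to 3.86, limma adjusted p = 1.3e-06), which ranked 68 from the largest rise among the 12729 genes tested. MT1X (56716382 to 56718108, plus strand, 3 exons) closes the cluster and is overlapped in the annotation by a long non-coding RNA. MT1X measured 55.7, 64.9 and 71.7 FPKM with DMSO and 304, 404 and 247 FPKM with BCT. The groups were clearly apart, and the log2 fold change was 2.29 (SE 0.17, 95% confidence interval 1.90 to 2.67, limma adjusted p = 4.4e-06).

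**Figure D2:**
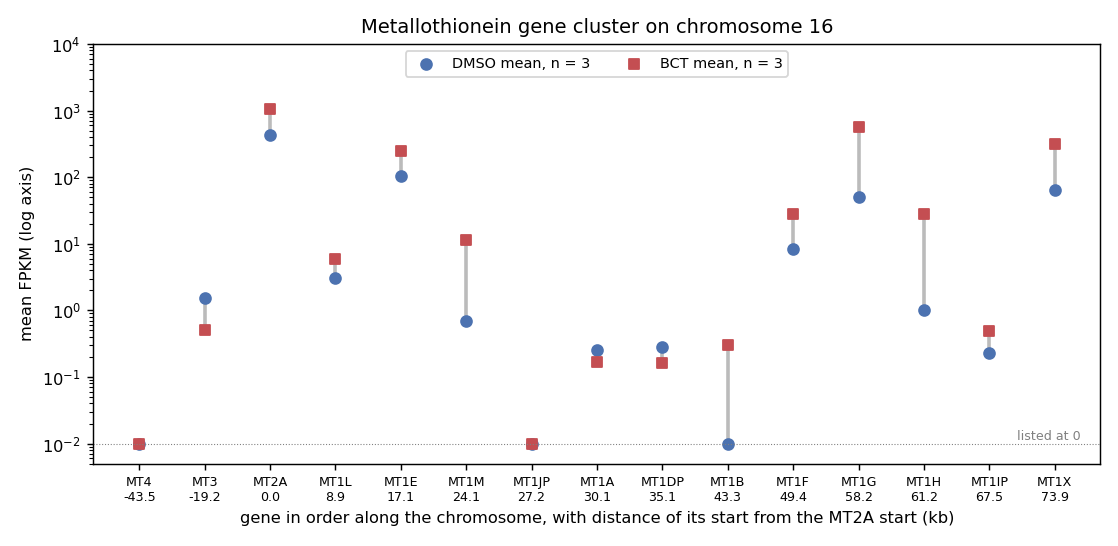
Mean FPKM (n = 3 each, log axis) of the 15 metallothionein genes of the chromosome 16 cluster, in order along the chromosome and evenly spaced, with the distance of each start from the MT2A start in kb under its name. The DMSO and BCT means of MT1G, MT1X, MT1H and MT1M lie further apart than those of MT2A and MT1E, and genes at the dotted line are listed at 0.

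The metallothionein members rose by unequal amounts, so the make-up of the metallothionein RNA shifted. The summed level of the 16 listed metallothionein genes was 601, 690 and 710 FPKM with DMSO and 2366, 2769 and 1667 FPKM with BCT, a difference of 1.74 on the log2 scale that is given as a description. MT2A made up 65.1% ± 0.243 of that sum with DMSO and 47.2% ± 1.17 with BCT (SD, n = 3 each). MT1G went from 7.64% ± 0.641 to 24.6% ± 0.468 of the sum. With these shares MT1G passed MT1E and MT1X to become the second metallothionein of the BCT-treated cells. MT1X went from 9.60% ± 0.446 to 14.1% ± 1.08 and MT1E from 15.4% ± 0.384 to 10.8% ± 0.598, both without overlap between the groups. MT1F kept overlapping shares, 1.26% ± 0.134 and 1.23% ± 0.0670. A scaling of a whole sample leaves such shares as they are.

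**Figure D3:**
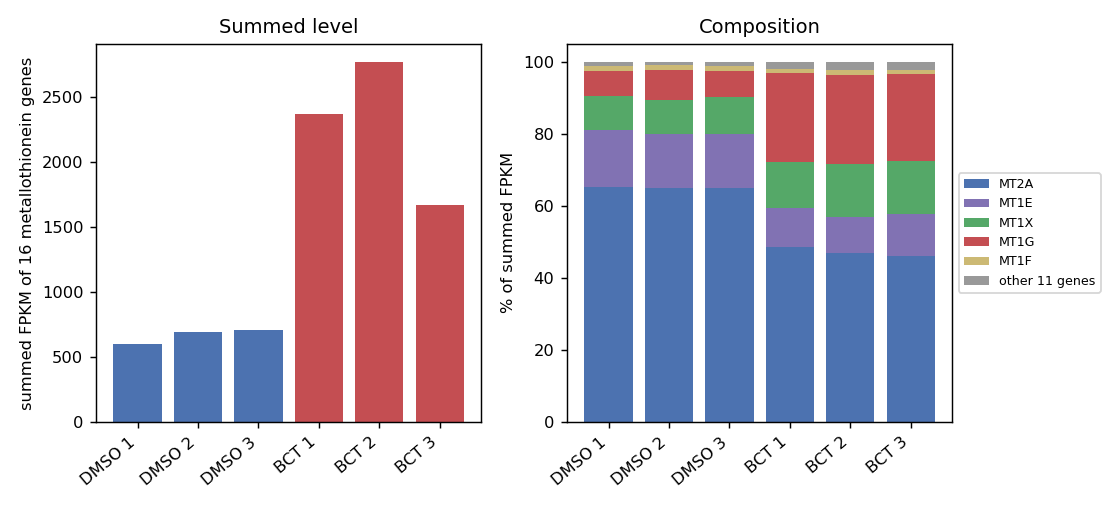
Left, summed FPKM of the 16 metallothionein genes in each of the 6 samples, and right, the percent of that sum held by each gene, as stacked bars from 0. The MT2A share is 64.9% to 65.3% in the DMSO samples and 46.2% to 48.5% in the BCT samples, and the MT1G share is 7.16% to 8.36% and 24.1% to 24.9%.

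All 10 pairs of the 5 metallothioneins were then compared by the log2 ratio of their FPKM in each sample, a comparison added after the values were seen. For 9 of the 10 pairs, which reuse the same 5 genes, the ratio in BCT samples did not overlap that in DMSO samples. The levels of single genes were apart in this way in 85.3% of all genes tested. The share among ratios of other gene pairs was not computed. The log2 ratio of MT2A to MT1G was 3.09 ± 0.12 with DMSO and 0.94 ± 0.027 with BCT, a difference of -2.15, and that of MT2A to MT1X differed by -1.02. The ratio of MT1G to MT1X differed by 1.14. MT2A to MT1E was the 1 pair with overlap, with a ratio of 2.08 ± 0.031 with DMSO and 2.12 ± 0.095 with BCT (two-sided exact permutation p = 0.5, adjusted over the 10 pairs 0.5). For the other 9 pairs the exact permutation p was 0.1, the smallest that 3 samples against 3 can give, and 0.111 when adjusted over the pairs, so none passes a threshold of 0.05.

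The BCT samples kept the same order in all 5 metallothioneins. Replicate 2 was highest and replicate 3 lowest in 5 of 5. Relative to the DMSO mean, MT1G was 11.5-fold, 13.5-fold and 7.86-fold in BCT replicates 1, 2 and 3, and MT2A was 2.64-fold, 2.99-fold and 1.78-fold. Of the 1764 genes called higher with BCT, replicate 2 was the highest in 56.9% and replicate 3 was the lowest in 8.73%. MTF1 did not follow that order, with 2.08-fold, 2.51-fold and 2.52-fold. Without BCT replicate 3 the log2 fold change of MT2A was 1.49 and that of MT1G was 3.65, both still called.

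Metallothionein genes are near-copies of one another, so reads can be assigned to the wrong one. In the GENCODE transcripts on GRCh37, no stretch of 100 bases of the 5 members occurred in a gene elsewhere in the genome. Stretches of 50 bases did so in all 5, for 6.12% of those of MT1F, 10.3% of MT1E, 11.1% of MT2A, 18.0% of MT1X and 19.9% of MT1G. The MT1E transcript used was the longest of the 5, at 746 bases, which lowers its percent. It had 72 shared stretches of 697, and MT1G had 72 of 361. These counts leave out genes that overlap a member at the same place. The long non-coding RNA that overlaps MT1X held 22.0% of the 100-base stretches of MT1X. The level of a single member is uncertain to the extent that alignments were shared. The summed level is less affected by sharing between metallothioneins.

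Further metallothioneins were listed, all but MT1HL1 in the same cluster and all at lower levels than the 5 above in the DMSO samples. Of these 11, 4 were tested, of which 3 were called higher and 1 lower, against 13.9% and 17.8% of all genes tested. MT1M and MT3 among them passed the filter only through the group in which they were higher. MT1H had 0.809, 1.18 and 1.05 FPKM with DMSO and 23.3, 40.6 and 21.0 FPKM with BCT. The log2 fold change of 4.63 (SE 0.24, limma adjusted p = 1.1e-06) was above that of MT1G, and the BCT mean of 28.3 FPKM was close to that of MT1F. MT1M was at 0.675, 0.328 and 1.10 FPKM and then at 13.0, 12.9 and 8.44 FPKM, a log2 fold change of 3.95 (SE 0.34, limma adjusted p = 1.1e-05). Its DMSO mean of 0.701 FPKM means that it passed the filter through its BCT samples alone. Of the 50-base stretches of MT1H, 20.4% occurred in MT1G or MT1HL1, and of those of MT1M, 14.6% in MT1G and other genes. Both genes were far below MT1G in level, and the part of shared reads in their rise was not tested. MT1L, which is named as a gene or pseudogene, rose by 0.92 (SE 0.17, limma adjusted p = 0.00095) and lost the call without DMSO replicate 1, at 0.78, and with a pseudocount of 1, at 0.76.

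MT3, the metallothionein known from the brain, went the other way. It measured 1.31, 1.34 and 1.99 FPKM with DMSO and 0.294, 0.605 and 0.606 FPKM with BCT. The groups did not overlap, and the log2 fold change was -1.48 (SE 0.29, limma adjusted p = 0.0013), for a gene that passed the filter through its DMSO samples alone. The call was lost with values scaled to equal sums, at -0.80, and with a pseudocount of 1, at -0.76. MT4 and MT1JP were listed at 0 in all 6 samples, and MT1B, also listed at 0 with DMSO, had 0.470, 0.218 and 0.221 FPKM with BCT.

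MTF1 (chromosome 1, 38275239 to 38325292, minus strand, 11 exons), the transcription factor of the system, was expressed at a low level. It measured 3.56, 3.92 and 3.44 FPKM in DMSO samples and 7.59, 9.13 and 9.18 FPKM in BCT samples. Every BCT sample was above every DMSO sample, and the replicates within a group were close together. Means of 3.64 ± 0.254 and 8.64 ± 0.907 FPKM gave a log2 fold change of 1.22 (SE 0.093, 95% confidence interval 1.01 to 1.44, limma adjusted p = 5.6e-06).

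Among the exporters, SLC30A1 (ZnT1, which carries zinc out across the plasma membrane; chromosome 1, 211748381 to 211752099, minus strand, 2 exons) measured 8.97, 8.65 and 8.23 FPKM with DMSO and 15.7, 19.3 and 15.3 FPKM with BCT. The groups did not overlap. The log2 fold change of 0.94 (SE 0.091, 95% confidence interval 0.73 to 1.15, limma adjusted p = 1.9e-05) lay close to the threshold of 0.85. It was 0.84 without BCT replicate 2 and 0.72 after a correction for GC content and transcript length, and SLC30A1 was not called in either. SLC30A4 (ZnT4, which loads zinc into vesicles; chromosome 15, 45774680 to 45848928, minus strand, 8 exons) had DMSO values of 0.510, 0.481 and 0.402 FPKM and BCT values of 1.05, 0.980 and 1.06 FPKM. Its mean over the 6 samples was 0.747 FPKM, under the filter of 1 FPKM. In a fit without a filter, in which 12.3% of 21543 genes were called higher, the log2 fold change was 1.004 (SE 0.13, limma adjusted p = 0.00046), and with a pseudocount of 1 it was 0.47. The deposited table gives SLC30A4 and HMGN2P46 the same coordinates.

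Among the importers, SLC39A6 (ZIP6, also called LIV-1; chromosome 18, 33688494 to 33709357, minus strand, 10 exons) measured 120.0, 114 and 108 FPKM with DMSO and 54.0, 43.0 and 45.5 FPKM with BCT. All BCT samples were far below all DMSO samples. With means of 114 ± 5.86 and 47.5 ± 5.75 FPKM, SLC39A6 had a log2 fold change of -1.27 (SE 0.086, 95% confidence interval -1.47 to -1.07, limma adjusted p = 3.1e-06). With values scaled to equal sums it was -0.50 and not called. SLC39A1 (ZIP1, a main zinc uptake transporter of prostate cells; chromosome 1, 153931575 to 153950451, minus strand, 4 exons) was the most abundant transporter. Its values were 151, 143 and 151 FPKM with DMSO and 124, 125 and 113 FPKM with BCT. The groups did not overlap, and the log2 fold change was -0.30 (SE 0.056, 95% confidence interval -0.43 to -0.17, limma adjusted p = 0.0011), short of the fold change threshold. With equal sums the sign turned, to 0.47, so no direction is given for SLC39A1. The table lists SLC39A1 under coordinates that it shares with CREB3L4 and JTB.

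**Figure D4:**
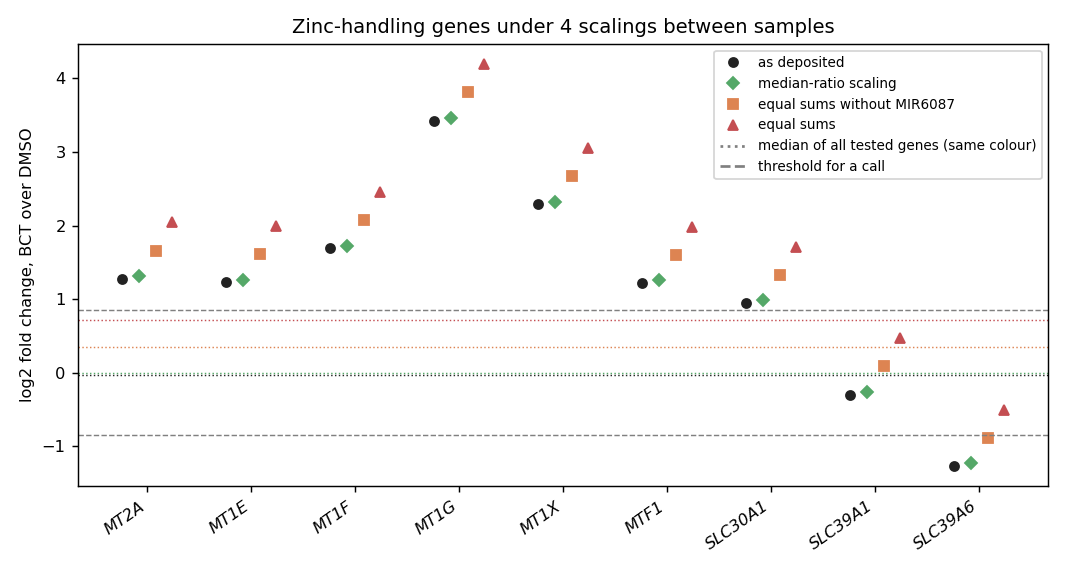
Log2 fold change of the 9 tested genes, BCT against DMSO, with the values as deposited and under 3 other scalings of the samples, with dotted lines at the median of all tested genes and dashed lines at the threshold. The 5 metallothioneins, MTF1 and SLC30A1 stay above 0.85 in all 4, SLC39A6 is below 0 in all 4, and SLC39A1 changes sign.

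The order of the levels changed accordingly. With DMSO, SLC39A1 and SLC39A6 came next after MT2A and stood above MT1E. The DMSO ranges of MT1X and MT1G overlapped, although MT1X was above MT1G in each DMSO sample. Those of SLC30A1 and MT1F also overlapped, and their order was not the same in all DMSO samples. With BCT, MT2A was followed by MT1G, MT1X and MT1E, whose sample ranges overlapped from one to the next. That order of the 4 held within each BCT sample, and all 4 were above SLC39A1 in every BCT sample. MTF1 and SLC30A4 were the least abundant in both groups.

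The other members of the transporter families were given as a frame for the 4 above. Of 8 other SLC30 genes, 4 were tested and 0 were called by limma, against 13.9% higher and 17.8% lower of all genes tested. Their log2 fold changes were positive in 1 and negative in 3, and 1 positive and 1 negative one had an unadjusted limma p below 0.05. Of the 12729 genes tested, 5049 were higher and 5509 lower at that level. SLC30A7, which supplies zinc to the Golgi, is the positive one and had the largest difference of the 4 (2.80 to 4.62 FPKM in the mean, log2 fold change 0.71, limma adjusted p = 9.5e-05). It passed the threshold of 0.85 with equal sums, at 1.45, and with equal sums without MIR6087, at 1.08. SLC30A5 and SLC30A6, which act as a pair in the secretory pathway, had log2 fold changes of -0.25 and -0.0065. SLC30A9, a mitochondrial zinc exporter, had -0.10 (limma adjusted p = 0.099).

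Of 12 other SLC39 genes, 9 were tested, 3 were called lower and 0 higher, against 17.8% lower and 13.9% higher of all genes tested. The log2 fold change was negative in 8 of the 9, as in 6595 of the 12729 genes tested, with a median of -0.62. With equal sums the median was 0.13. SLC39A11 (ZIP11) had DMSO values of 13.95, 13.4 and 13.8 FPKM and BCT values of 3.57, 2.23 and 2.45 FPKM. It was the importer with the largest difference, -2.31 (SE 0.15, limma adjusted p = 2.7e-06), and it was called lower under every scaling tried. SLC39A3 (ZIP3, a plasma membrane importer) had 38.6, 35.8 and 40.1 FPKM with DMSO against 20.0, 17.4 and 17.4 FPKM with BCT, and its log2 value fell by 1.06. SLC39A4 (ZIP4, the intestinal zinc importer mutated in acrodermatitis enteropathica) had 63.2, 62.5 and 69.7 FPKM against 39.5, 34.8 and 29.7 FPKM, and its log2 value fell by 0.92. Both lost the call with equal sums, at -0.29 and -0.15, and with equal sums without MIR6087, at -0.67 and -0.53. Both also lost it after the GC and length correction, at -0.77 and -0.57, and SLC39A4 without BCT replicate 3, at -0.81.

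The 6 importers that were not called had smaller differences. SLC39A8 (ZIP8, which also carries manganese and cadmium) had -0.76, SLC39A13 -0.62 and SLC39A9 -0.38. SLC39A14 (ZIP14, which also carries iron and manganese) and SLC39A7 (ZIP7, which releases zinc from the endoplasmic reticulum) both had -0.31. With equal sums the sign of these 5 turned. The deposited table lists SLC39A7 on an alternate haplotype of chromosome 6, under coordinates that it shares with RXRB. SLC39A10 (ZIP10) was the only one with a positive value, 0.26, with means of 15.0 and 17.9 FPKM (limma adjusted p = 0.0072). It was the only one of the 9 that was higher at an unadjusted limma p below 0.05, while 8 were lower. Of the 12729 genes tested, 5049 were higher and 5509 lower at that level. SLC39A10 was called higher with equal sums, at 1.02, and stood at 0.012 after the GC and length correction.

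**Figure D5:**
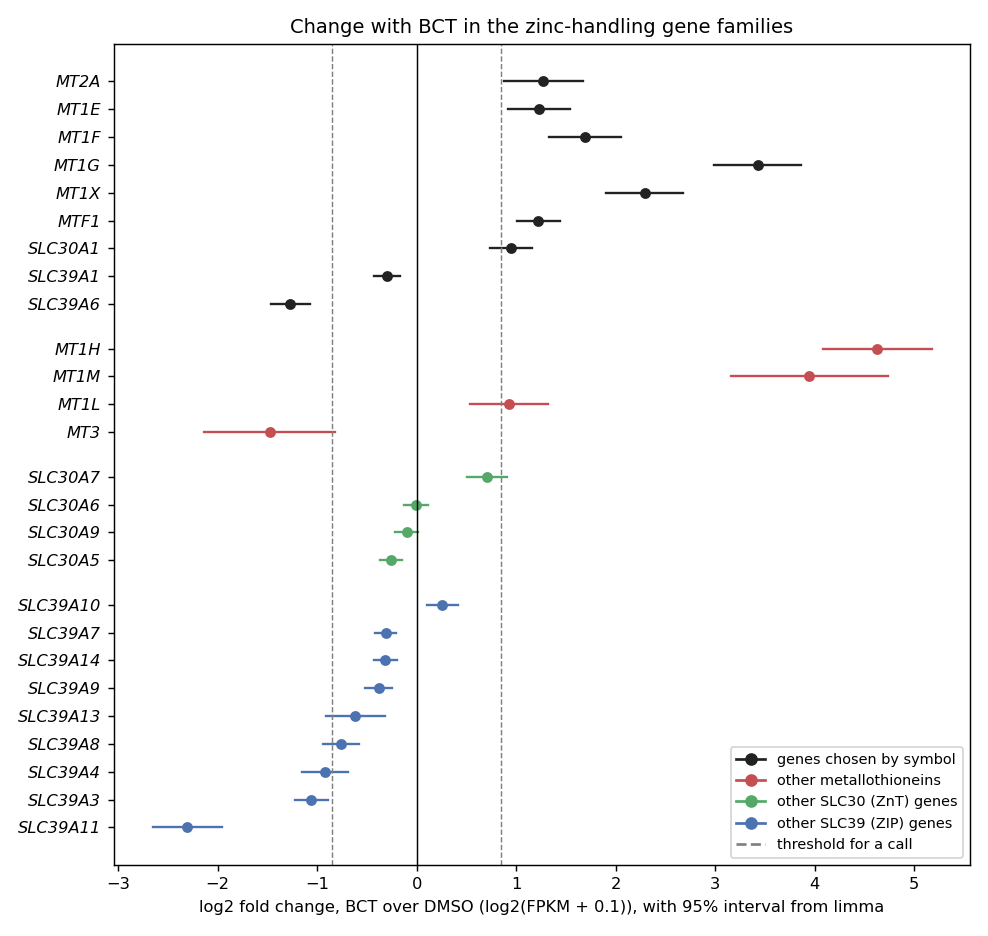
Log2 fold change, BCT against DMSO, of each tested metallothionein, SLC30 and SLC39 gene and MTF1, with 95% confidence intervals and dashed lines at the threshold of 0.85 in each direction. Metallothioneins other than MT3 have estimates above the upper line, and SLC39 genes other than SLC39A10 lie below 0.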

How the data were processed

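RNA-seq values of 6 samples of 22RV1 cells, 3 DMSO and 3 BCT, were analysed, with groups taken from the sample labels. The submitters' processing notes name CASAVA, Trimmomatic 0.38, HISAT2, HTSeq and the build hg19, and the methods of the study name StringTie for assembly, while the gene annotation is not given in the sources used here. The authors deposited FPKM values for each gene, which hold no read counts, so no count test was run and no interval for counting error can be given. Among genes with low values the depth relative to DMSO replicate 1 was 0.877 to 1 with DMSO and 1.05 to 1.13 with BCT.

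From these values, log2(FPKM + 0.1) was fitted for all genes whose mean reached 1 FPKM with limma 3.58.1 in R 4.3.3 (mean-variance trend), with Benjamini-Hochberg adjustment over all genes tested. The pseudocount understates the change of low genes. Exact permutation tests were made with SciPy 1.17.1. Alternatives covered the pseudocount, filter, scaling, FDR, variance model, replicate block, a loess correction (span 0.5) for GC content and transcript length, and each sample left out. The fit was tested on simulated data.

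The 10 genes and the gene lists were chosen with earlier results of these data known. The text names these 10, every other metallothionein, SLC30 and SLC39 gene whose mean reached 1 FPKM, the 4 called copper and iron genes with the largest change and no overlap between the groups, MIR6087 and the cell type markers. MT4, MT1JP, MT1B, SLC30A10 and SLC30A2 fall outside this rule and were named after their values were seen. The summed metallothionein level and shares are given with no test. Positions are those of the deposited hg19 table, with 1 added to the start, and exons come from GENCODE on GRCh37. Promoter sequences come from the RefSeq table for GRCh38.p14, placed on GRCh37 by exact match.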

Additional observations from a re-analysis of the deposited data

How the results depend on the processing

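Of 558 values recomputed for 31 named genes and for the metallothionein shares and ratios, 516 kept their direction and their side of the threshold, 18 lost a call, 3 gained one, 3 with no test moved beyond the replicate spread and 18 changed sign. The values that changed sign belonged to genes that were not called. With equal sums the log2 fold change was 0.47 for SLC39A1, 0.51 for SLC30A5, 0.76 for SLC30A6, 0.67 for SLC30A9, 0.46 for SLC39A7, 0.0047 for SLC39A8, 0.39 for SLC39A9, 0.13 for SLC39A13 and 0.45 for SLC39A14. With equal sums without MIR6087 it was 0.086 for SLC39A1, 0.13 for SLC30A5, 0.38 for SLC30A6, 0.29 for SLC30A9, 0.074 for SLC39A7, 0.0046 for SLC39A9 and 0.071 for SLC39A14. SLC30A6 was at 0.031 with median-ratio scaling and between -0.029 and 0.024 with a sample left out. The scalings to equal sums with and without MIR6087 shifted the median of all tested genes by 0.76 and 0.38, and 5614 genes were called higher and 668 lower (10.6% of calls lower) with equal sums and 3370 and 1208 (26.4%) without MIR6087, against 1764 and 2263 (56.2%) as deposited. Of the 9 tested genes, 0 were then called lower with equal sums. The summed metallothionein level differed by 2.51 and 2.13, and by 1.58 to 1.94 with a sample left out. Without a filter 2657 genes were called higher, and 1150 with a mean of at least 5 FPKM, as more or fewer genes were tested. At 50 bases in place of 100, 5 of the 5 metallothionein members shared a stretch with a gene elsewhere, and 11 in place of 2 of all 16 listed. Of the other lists, recomputed after the data were seen, the SLC39 genes had 1 called higher and 1 lower with equal sums and 1 lower without MIR6087 and with the GC and length correction, and the SLC30 genes had 1 higher with either scaling and 2 without a filter. The copper and iron genes had 3 higher and 2 lower with equal sums and 3 and 3 without MIR6087. Of the other metallothioneins 0 were called lower with a pseudocount of 1, with a mean of at least 5 FPKM and with equal sums.

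A block for the replicate number gave 1767 higher and 2266 lower calls, and the block alone changed no call of a named gene. The deviations of same-numbered samples from their group means correlated at 0.116, 0.033 and 0.034, and not every sample correlated best with its own number, so the numbers were not taken as pairs. FPKM without counts leaves the precision of low genes such as SLC30A4, MT1M and MT3 unknown.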

Other observations

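Among 15 genes that handle copper and iron, all tested, 1 was called higher and 6 lower with BCT, against 13.9% and 17.8% of all genes tested. Their median log2 fold change was -0.60 and turned to 0.17 with equal sums, where 3 were called higher and 2 lower. FTL, the light chain of the iron store ferritin, had 667 ± 51.7 FPKM with DMSO and 171 ± 24.0 FPKM with BCT (SD, n = 3 each), and its log2 value fell by 1.96 (limma adjusted p = 1.1e-06). SLC40A1 (ferroportin, the iron exporter) fell by 1.64, from 17.6 ± 0.589 to 5.62 ± 0.610 FPKM. TFRC, the transferrin receptor that takes up iron, fell by 1.37, from 89.4 ± 5.09 to 34.6 ± 1.76 FPKM, and it alone of the 4 genes named here lost its call with equal sums, at -0.60. HMOX1, which frees iron from heme, was the only one of the 15 called higher in the values as deposited, from 2.21 ± 0.290 to 9.04 ± 2.94 FPKM (log2 fold change 1.95, limma adjusted p = 3.3e-05).

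A pair of exporters under the filter of 1 FPKM stood out after their values were seen. SLC30A10, known as a manganese exporter, had DMSO values of 0.168, 0.147 and 0.128 FPKM and BCT values of 0.795, 1.64 and 1.63 FPKM, in a table that lists it under coordinates shared with BPNT1 and other genes. SLC30A2, a vesicular zinc transporter, had 0.0650, 0.130 and 0.135 FPKM against 0.469, 0.641 and 0.399 FPKM. In the fit without a filter, in which 12.3% of 21543 genes were called higher, their log2 fold changes were 2.49 and 1.52. No p-value is given, as the genes were picked by these same values. At such low levels the precision of both is unknown. The SLC30A2 promoter window held 3 matches to the metal response element core, a number reached by 2.30% of all windows, and both SLC30A10 windows held 0. Among the other metallothioneins the MT1H window held 8, and those of MT4, listed at 0 in all samples, and of MT1B held 3 each.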
